A study of Mus musculus with 4 samples.

Results

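The 10 chaperone genes described here are *Hspa1a*, *Hspa1b*, *Hspa8*, *Hsph1*, *Hsp90aa1*, *Dnajb1*, *Hspb1*, *Hspe1*, *Hspd1* and *Bag3*. They were taken by name from the 23420 gene symbols counted in the mouse prefrontal cortex (PFC), and all 10 passed the filter that left 16232 genes for testing. Bulk RNA-seq was available for 4 samples of C57BL6/J mice. In 2 control samples the mice had received a control AAV9, which the labels call a GFP virus and the methods of the study call a scrambled shRNA virus. In 2 *Ash1L* shRNA samples they had received an AAV9 carrying a short hairpin RNA against *Ash1L*, a histone methyltransferase of the Trithorax family. By the methods of the study, mice of both groups were injected on both sides of the medial PFC at 5 weeks of age, the single hairpin was transcribed from a U6 promoter in a GFP-tagged vector, GFP-containing tissue was punched out, and 3 mice were pooled for each sample. The series description instead names 3 knockdown and 2 control mice aged 6 to 8 weeks. All cells of the punch were lysed together, so uninfected cells were measured with infected ones, and fewer cells of a type and less RNA per cell cannot be told apart. *P* values measure the spread between these pools only.

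Chaperones bind unfolded or newly made proteins, keep them from aggregating and help them fold. HSP70 proteins work in an ATP-driven cycle in which J-domain proteins deliver the client, nucleotide exchange factors such as HSP110 and BAG proteins release it, HSP90 takes over many signalling proteins, and small heat shock proteins hold clients until refolding. Unfolded protein or heat frees heat shock factor 1 (HSF1), which binds heat shock elements, alternating GAA and TTC units in promoters, and switches on the inducible members. Neurons hold much of the constitutive form, HSC70, which also uncoats clathrin vesicles at the synapse, and usually little of the inducible form. *Hspd1* and *Hspe1* encode the HSP60 and HSP10 subunits of the mitochondrial chaperonin. They are therefore not cytosolic by function, but they belong to the same heat shock response and are described with the others.

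Total counts ran from 14251190 to 35764874 per sample. The targeted gene *Ash1l* was counted at 245 and 290 counts per 1000000 (CPM, library sizes scaled by TMM) in control 1 and 2, and at 216 and 138 CPM in *Ash1L* shRNA 1 and 2. Both knockdown samples were below both controls, with the lower level in *Ash1L* shRNA 2 (log2 fold change -0.60, SE 0.22, adjusted *P* = 0.275, edgeR's quasi-likelihood test, Benjamini-Hochberg). The gene was DOWN by the definition that follows, and not without either control or without *Ash1L* shRNA 2 (log2 fold changes -0.71, -0.48 and -0.31). Genes were called UP or DOWN by the limits of the study, an unadjusted *P* under 0.05 and a change of at least 1.2-fold. The study applied these limits to DESeq2, and here they were applied to edgeR's quasi-likelihood test unless another test is named. At an adjusted *P* under 0.05, 1 gene of 16232 passed in edgeR's test. All 8 excitatory neuron markers of the list used were detected, among them *Camk2a* at 927 to 1523 CPM.

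Of the 10 chaperone genes, 3 were UP (*Hspa1a*, *Hspd1* and *Bag3*), against 8.61% of all genes tested, and 0 were DOWN, against 8.28% of all genes. None passed the Benjamini-Hochberg adjusted threshold in edgeR's quasi-likelihood test (adjusted *P* from 0.260 to 0.854). 3 had an unadjusted *P* under 0.05, and DESeq2 called 1, *Hspa1a*, at an adjusted *P* of 0.0250. With DESeq2, the test of the study, the same limits gave 4 UP (*Hspa1a*, *Hsph1*, *Hspd1* and *Bag3*) and 0 DOWN. Over all 16232 genes DESeq2 gave 1225 UP. In 6 genes both *Ash1L* shRNA samples lay above both controls, compared to 26.5% of all genes, and in 0 below both, compared to 26.8%. The median log2 fold change of the 10 genes was 0.33 and that of all genes was -0.0027. The 10 genes were chosen with earlier results of these data known, so these contrasts with all genes are descriptive only. The largest fold changes were those of the inducible HSP70 pair and *Bag3*, all counted under 30 CPM in every sample. The abundant genes *Hspa8* and *Hsp90aa1* had log2 fold changes of 0.10 and -0.05.

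The promoter sequences are given first, since the 2 inducible HSP70 genes can hardly be told apart by sequence and since most of the genes carry heat shock element letters. In both genes the 250 bases before the start are shown, 5′ to 3′ on the coding strand, from RefSeq (GRCm38.p6, the same assembly as mm10). Capitals mark the facing GAA and TTC units. *Hspa1a* lies at chr17:34972157-34972406 and *Hspa1b* at chr17:34959239-34959488, both on the minus strand.
Hspa1a: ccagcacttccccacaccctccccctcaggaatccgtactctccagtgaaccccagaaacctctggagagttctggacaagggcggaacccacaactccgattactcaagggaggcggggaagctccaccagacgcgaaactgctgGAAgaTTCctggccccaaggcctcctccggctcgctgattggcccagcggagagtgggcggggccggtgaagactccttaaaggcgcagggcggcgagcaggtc
Hspa1b: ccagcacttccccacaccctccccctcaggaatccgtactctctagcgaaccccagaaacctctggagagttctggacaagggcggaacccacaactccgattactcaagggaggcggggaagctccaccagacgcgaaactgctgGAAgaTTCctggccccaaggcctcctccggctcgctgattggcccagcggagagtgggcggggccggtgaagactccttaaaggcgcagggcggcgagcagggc

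Of these 250 bases 3 differed, and counted from the first base shown the substitutions from *Hspa1a* to *Hspa1b* were C44T, T47C and T249G. The facing pair GAANNTTC began 104 bases before the start in both genes. A CCAAT box, on the other strand, began 67 bases before the start in both.

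Both arrangements of facing units, GAANNTTC and TTCNNGAA, were searched on both strands from 250 bases before to 50 after the start. RefSeq promoters were matched for 8 of the 10 genes by symbol, and *Hspa8* and *Hsp90aa1* had none in the table used. A gene was counted if any of its windows held the letters. Of the 8, 7 held at least 1 facing pair, and of the 11728 tested genes with a promoter 14.5% did. Runs of 3 alternating units, with any 2 bases between units and so with facing pairs inside them, were found in *Hsph1*, *Hspe1* and *Hspd1*. The share was 0.631% of the 11728 genes. With 1 letter allowed to differ, such runs were found in 6 of the 8, *Hspa1a* and *Hspa1b* among them, and in 6.86% of the 11728. TATAAA was found in 0 of the 8 genes and in 9.43% of the 11728, and CCAAT in 5 of the 8 and in 42.2%. *Dnajb1* was the gene of the 8 without a facing pair in these windows. These are matches of letters and not measured binding. The genes were picked by name as heat shock genes, so the shares of all genes beside them are a description and not a test. Nor are the genes separate cases. *Hspa1a* and *Hspa1b* hold the same pair at the same place, and *Hspe1* and *Hspd1* are both counted for a single site. The matched stretches of the other genes are shown because they differ in number and position of the units, with the units in capitals.
Hsph1, upstream: TTCtcGAA
Hsph1, downstream: TTCtgGAAagTTC
Hspb1: GAAgtTTCcagatgggggcaGAAccTTC
Hspe1: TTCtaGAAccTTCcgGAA
Hspd1: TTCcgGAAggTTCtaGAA
Bag3: GAAgtTTC

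The run of units shown for *Hspe1* and for *Hspd1*, at chr1:55088059-55088076, is a single site read from its 2 strands, since these genes start head to head. It began 89 bases before the RefSeq start of *Hspe1*. In *Hspd1* it lay inside the annotated gene, after the first of its 2 starts and 144 bases before the second. The *Hspb1* stretch (chr5:135887802-135887829, plus strand) held 2 separate pairs and began 117 bases before the start. *Hsph1* (minus strand) held 1 pair at chr5:149636362-149636369, 54 bases before its second annotated start, and a run of 3 units at chr5:149636288-149636300, after both starts. In *Bag3* the single pair lay after the start, at chr7:128523625-128523632 on the plus strand.

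**Figure D1:**
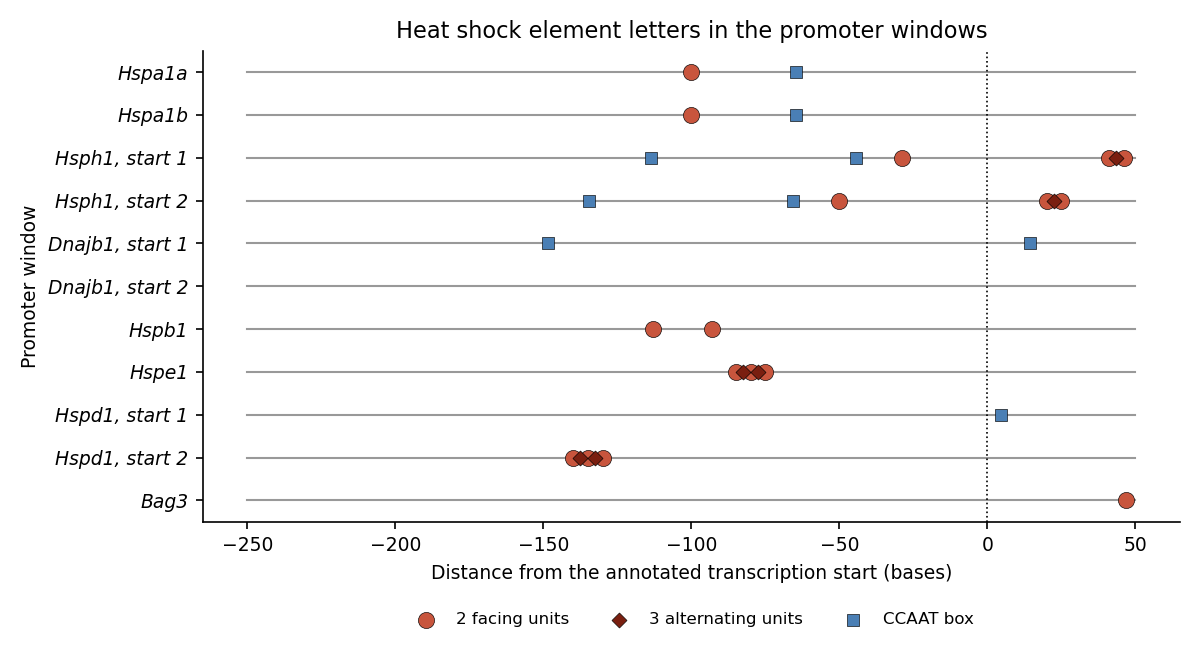
Positions of heat shock element letters and CCAAT boxes in the promoter windows of 8 chaperone genes, in bases from the annotated start (x axis), with 1 line for each annotated start (y axis). Red circles mark facing GAA and TTC units, dark diamonds runs of 3 units and blue squares CCAAT boxes. The pair and the CCAAT box sit at the same places in *Hspa1a* and *Hspa1b*, and *Dnajb1* shows no unit pair.

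The 2 stress-inducible HSP70 genes had the largest fold changes of the 10. *Hspa1a* (chr17:34969190-34972156, mm10, minus strand) was counted at 5.03 CPM in control 1, 2.11 CPM in control 2, 7.34 CPM in *Ash1L* shRNA 1 and 17.7 CPM in *Ash1L* shRNA 2. Both knockdown samples were above both controls, *Ash1L* shRNA 2 stood highest, and the controls themselves differed 2.38-fold. The log2 fold change of 1.87 (SE 0.57) had an unadjusted *P* of 0.0182 in edgeR's quasi-likelihood test and an adjusted *P* of 0.260 with Benjamini-Hochberg adjustment, and the gene was UP. The call was lost without control 2 (1.30, unadjusted *P* = 0.100 in edgeR's test) and without *Ash1L* shRNA 2 (1.12, unadjusted *P* = 0.0525).

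*Hspa1b* (chr17:34956436-34959238, minus strand), which encodes the same inducible HSP70 protein, was counted at 8.71 and 2.31 CPM in control 1 and 2 and at 11.6 and 27.7 CPM in *Ash1L* shRNA 1 and 2. The order of the 4 samples was the same as for *Hspa1a*, the groups did not overlap, and the controls differed 3.77-fold. The log2 fold change was 1.91 (SE 0.75), with an unadjusted *P* of 0.0539 in edgeR's test and an adjusted *P* of 0.301, so the gene was not called. The log2 fold change was 1.17 without control 2, 1.18 without *Ash1L* shRNA 2, 2.47 without *Ash1L* shRNA 1 and 3.10 without control 1. The gene was UP in the last of these, in the likelihood ratio test and under the crossed replicate block, and not in the other 10 alternative fits. The counts behind these levels were small, from 71 to 367 reads for *Hspa1a* and from 81 to 575 for *Hspa1b*, and the exact Poisson 95% interval of *Hspa1a* in control 2, which covers counting error only, ran from 1.66 to 2.65 CPM.

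Reads of the pair are hard to assign. The longest annotated transcripts of *Hspa1a* and *Hspa1b* were 99.3% identical over 2209 aligned bases, and 47.1% of all 100-base windows of *Hspa1a* occurred in *Hspa1b*. *Hspa1a* also shares 564 exon bases with the antisense gene *Gm20481*. How the counting treated reads with several matches or the strand is not given in the sources used here, so the split between the copies is uncertain. Summed, the pair was counted at 13.7 and 4.42 CPM in control 1 and 2 and at 18.9 and 45.4 CPM in *Ash1L* shRNA 1 and 2. The groups of the sum did not overlap, and the summed row was UP in edgeR's test (log2 fold change 1.88, SE 0.69, adjusted *P* = 0.287 with Benjamini-Hochberg adjustment).

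*Hspa8* (chr9:40800984-40810087, plus strand) encodes HSC70, the constitutive counterpart of the inducible pair. It was counted at 1936 and 1979 CPM in the controls and at 2081 and 2112 CPM in the *Ash1L* shRNA samples. Both knockdown samples were above both controls, but by little, and the gene was not called (log2 fold change 0.10, SE 0.12, adjusted *P* = 0.682 in edgeR's test). Per kilobase of exon, the inducible pair stood at 1.07% and 0.334% of the level of *Hspa8* in control 1 and 2, and at 1.37% and 3.23% in *Ash1L* shRNA 1 and 2. The inducible form was thus the minor one in all 4 samples. For *Hspa8* the exon union is 4301 bases and the longest coding transcript 2394, so the exact shares depend on the length used.

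**Figure D2:**
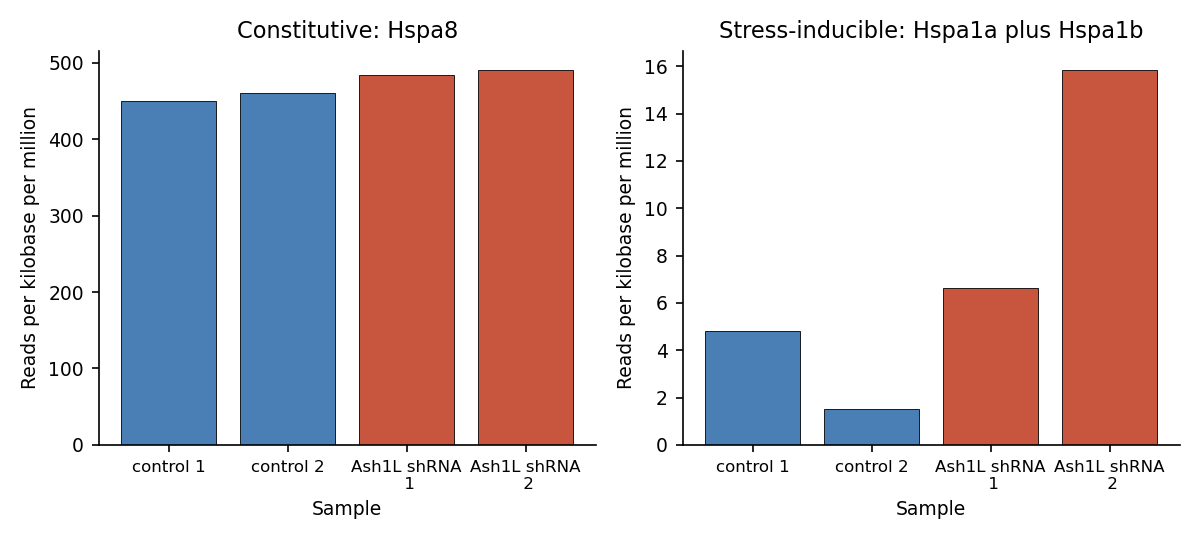
Levels per kilobase of exon (RPKM; y axes, each starting at 0 and scaled differently) of the constitutive HSP70 gene *Hspa8* (left) and of the inducible pair *Hspa1a* plus *Hspa1b* (right) in the 4 samples (x axes; blue, control; red, *Ash1L* shRNA). *Hspa8* stays between 450.1 and 491 and the pair lies between 1.53 and 15.9, highest in *Ash1L* shRNA 2.

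*Hsph1* (chr5:149614287-149636376, minus strand) encodes an HSP110 protein, which releases nucleotide from HSP70 and holds unfolded clients. It was counted at 318 and 299 CPM in the controls and at 343 and 466 CPM in the *Ash1L* shRNA samples. The groups did not overlap, and *Ash1L* shRNA 2 stood apart from the other 3 samples. With a log2 fold change of 0.39 (SE 0.17) the unadjusted *P* was 0.0548 in edgeR's test (adjusted *P* = 0.302) and the gene was not called. The log2 fold change was 0.15 without *Ash1L* shRNA 2 and 0.59 without *Ash1L* shRNA 1. The gene was UP in 6 of 14 alternative fits, among them the last, DESeq2 and 2 other scalings, and not called in the other 8, among them the replicate block.

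*Dnajb1* (chr8:83608193-83612653, plus strand) encodes the J-domain protein HSP40 that activates the ATPase of HSP70. It was counted at 66.4 and 65.4 CPM in the controls and at 55.3 and 94.6 CPM in *Ash1L* shRNA 1 and 2. The controls lay close together between the knockdown samples, of which the first was lowest and the second highest of all 4. The log2 fold change of 0.18 (SE 0.25, adjusted *P* = 0.729 in edgeR's test) was an average of these, -0.25 in *Ash1L* shRNA 1 and 0.52 in *Ash1L* shRNA 2 relative to the control mean. Its direction turned without *Ash1L* shRNA 2 (-0.25), and it was UP without *Ash1L* shRNA 1 (0.52).

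*Bag3* (chr7:128523616-128546981, plus strand) encodes a BAG-domain co-chaperone that releases clients from HSP70, binds small heat shock proteins and directs aggregation-prone proteins to autophagy. It was counted at 3.05 and 2.88 CPM in the controls and at 4.60 and 9.99 CPM in the *Ash1L* shRNA samples, from 43 to 207 reads. The controls differed by little, both knockdown samples were above them, and *Ash1L* shRNA 2 was again the highest. The gene was UP with a log2 fold change of 1.30 (SE 0.41), an unadjusted *P* of 0.0180 and an adjusted *P* of 0.260 in edgeR's quasi-likelihood test. The call was lost without control 1 (1.35), without control 2 (1.25) and without *Ash1L* shRNA 2 (0.64).

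*Hspb1* (chr5:135887919-135889563, plus strand) encodes the small heat shock protein HSP25, which holds unfolded clients and is known in the brain mainly from reactive astrocytes and vessels. It was counted at 5.67 and 3.36 CPM in the controls and at 4.13 and 8.30 CPM in the *Ash1L* shRNA samples. The groups overlapped, since *Ash1L* shRNA 1 lay between the controls, and *Ash1L* shRNA 2 was highest. The log2 fold change of 0.48 (SE 0.43, adjusted *P* = 0.587 in edgeR's test) turned to -0.09 without *Ash1L* shRNA 2 and was UP at 0.92 without *Ash1L* shRNA 1.

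*Hsp90aa1* (chr12:110690605-110702728, minus strand) encodes the inducible form of cytosolic HSP90, although it is abundant in the unstressed brain. It was counted at 1007 and 1069 CPM in the controls and at 1038 and 967 CPM in the *Ash1L* shRNA samples. The groups overlapped, with *Ash1L* shRNA 2 the lowest of the 4, and the log2 fold change was -0.05 (SE 0.12, adjusted *P* = 0.849 in edgeR's test). *Hsp90aa1* and *Hspe1* were the 2 genes of the 10 in which *Ash1L* shRNA 2 was not the highest sample.

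Of the mitochondrial pair, *Hspd1* was called and *Hspe1* was not, and the difference between them was not tested. *Hspd1* (chr1:55077835-55088243, minus strand) was counted at 163 and 161 CPM in the controls and at 193 and 199 CPM in the *Ash1L* shRNA samples. Within each group its samples lay closer together than the groups did, and the 2 knockdown samples rose by nearly the same amount, 1.19-fold and 1.23-fold over the control mean. It was UP (log2 fold change 0.28, SE 0.11, unadjusted *P* = 0.0375, adjusted *P* = 0.278 in edgeR's quasi-likelihood test). The call sat close to both limits and was lost in the likelihood ratio test, under the replicate block, without either control and without *Ash1L* shRNA 2, where the log2 fold change stayed between 0.26 and 0.30.

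*Hspe1* (chr1:55088132-55091307, plus strand) was counted at 42.8 and 48.1 CPM in the controls and at 45.3 and 42.4 CPM in the *Ash1L* shRNA samples. The groups overlapped and the log2 fold change was -0.05 (SE 0.13, adjusted *P* = 0.854 in edgeR's test). The annotated genes overlap head to head by 112 bases on opposite strands, so a few reads could be counted for either. Per kilobase of the exon union, *Hspd1* stood at 2.12 and 1.87 times the level of *Hspe1* in control 1 and 2. In *Ash1L* shRNA 1 and 2 it stood at 2.37 and 2.62 times. The size of this ratio depends on the length used. The exon union of *Hspe1* is 1474 bases and its longest coding transcript 774, against 2642 and 2423 for *Hspd1*.

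**Figure D3:**
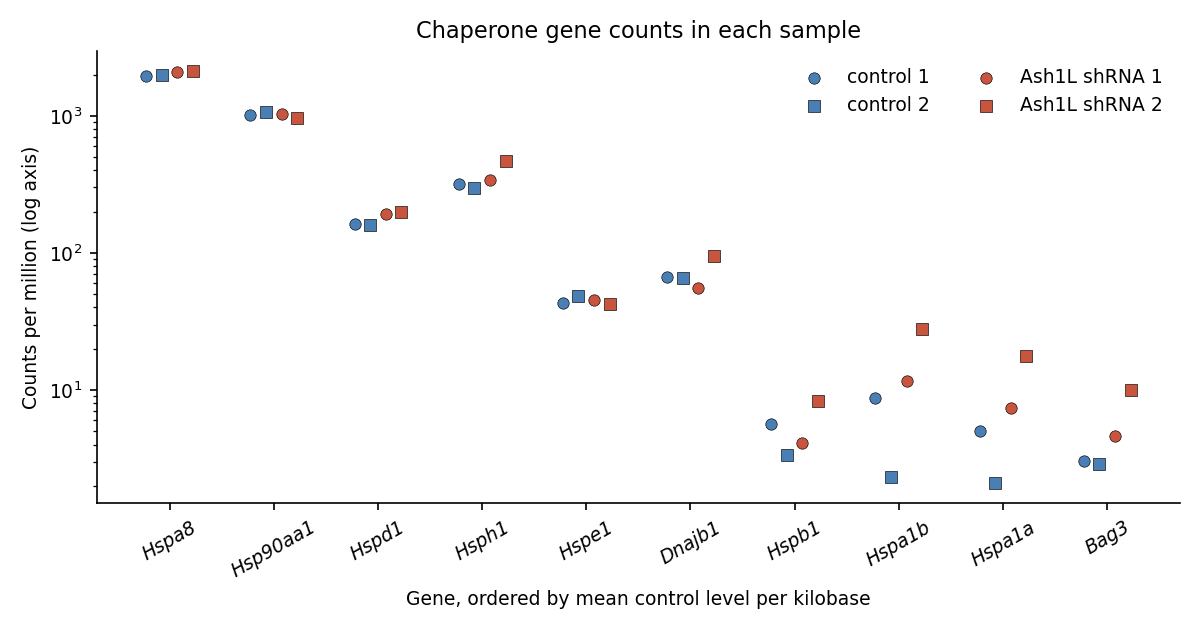
CPM (y axis, log scale) of the 10 chaperone genes in each of the 4 samples (blue, control; red, *Ash1L* shRNA; circles, replicate 1; squares, replicate 2), ordered along the x axis by mean control level per kilobase. *Hspa8* and *Hsp90aa1* lie near or above 1000 in all samples, and the genes under 30 CPM show the widest spread between samples.

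In the controls the order of mean levels per kilobase of exon (RPKM) was *Hspa8* (455), *Hsp90aa1* (264), *Hspd1* (61.2), *Hsph1* (42.5), *Hspe1* (30.8), *Dnajb1* (20.6), *Hspb1* (4.38), *Hspa1b* (1.97), *Hspa1a* (1.203) and *Bag3* (1.16). The ranges of *Hspa1b* and *Hspa1a*, and of *Hspa1a* and *Bag3*, overlapped between the 2 controls, and the other neighbours did not. This order depends on the use of exon unions as lengths. The unions of *Hsph1* (7266 bases), *Hspa8* (4301) and *Hspe1* (1474) are much longer than their longest coding transcripts (3802, 2394 and 774 bases). In the *Ash1L* shRNA samples the lower end of the order was *Hspa1b* (7.02), *Hspb1* (6.03), *Hspa1a* (4.22) and *Bag3* (2.85), each overlapping the next, and the ranges of *Hspe1* and *Dnajb1* also overlapped. Summed over the 10 genes, the counts came to 3555 and 3632 CPM in the controls and to 3782 and 3944 CPM in the *Ash1L* shRNA samples. *Hspa8* and *Hsp90aa1* made up 78.1% to 83.9% of these sums. Copies elsewhere in the genome could share reads with 5 further genes: of the 100-base windows of their longest coding transcripts, 63.4% for *Hspa8*, 47.5% for *Hsp90aa1*, 42.7% for *Hspb1*, 26.9% for *Hspd1* and 22.4% for *Hspe1* recurred in transcripts of other annotated genes, among them *Gm15459* for *Hspa8* and *Gm12346* for *Hsp90aa1*. For *Hsph1*, *Dnajb1* and *Bag3* the share was 0%, so their counts are the ones least open to this.

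Compared sample by sample with the control mean, the 2 knockdown samples gave different pictures. In *Ash1L* shRNA 1 *Hspa1a* was 2.06-fold, *Hspa1b* 2.11-fold and *Bag3* 1.55-fold of the control mean, and *Dnajb1* and *Hspb1* were at 0.840 and 0.914. In *Ash1L* shRNA 2 the same genes were at 4.96-fold, 5.03-fold, 3.37-fold, 1.44-fold and 1.84-fold. In 8 of the 10 genes *Ash1L* shRNA 2 was above *Ash1L* shRNA 1 and was the highest of all 4 samples. Over all genes tested 47.7% were higher in *Ash1L* shRNA 2 than in *Ash1L* shRNA 1, and among all UP genes 80.8% were. Within the controls, control 1 was above control 2 in 7 of the 10. For this count, and for the count of genes highest in *Ash1L* shRNA 2, the share over all genes was not computed.

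**Figure D4:**
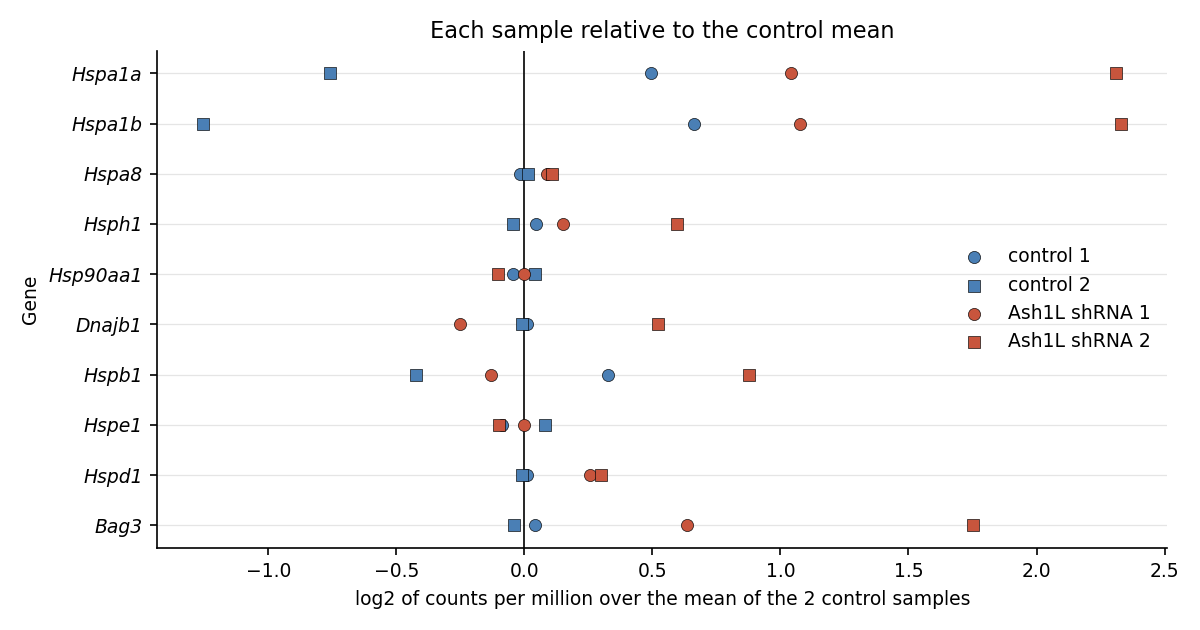
log2 of the CPM of each sample over the mean of the 2 controls (x axis) for the 10 chaperone genes (y axis; blue, control; red, *Ash1L* shRNA; circles, replicate 1; squares, replicate 2). *Hspa1a*, *Hspa1b*, *Bag3*, *Hspb1*, *Hsph1* and *Dnajb1* spread to the right in *Ash1L* shRNA 2, and *Hspd1* shows its 2 knockdown points together between 0.25 and 0.30.

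Other measured values moved with *Ash1L* shRNA 2. The 12 immediate early genes of the list used, which neurons switch on within minutes of activity, summed to 689 and 507 CPM in control 1 and 2, to 385 CPM in *Ash1L* shRNA 1 and to 3314 CPM in *Ash1L* shRNA 2. All 12 were higher in *Ash1L* shRNA 2 than in *Ash1L* shRNA 1, 0 of the 12 were called in edgeR's test, also at an unadjusted *P* under 0.05, DESeq2 called 3 UP at an unadjusted and 0 at an adjusted *P* under 0.05, and the median log2 fold change was 1.47. These values hinge on *Ash1L* shRNA 2. Without it 6 of the 12 were DOWN, and without *Ash1L* shRNA 1 all 12 were UP. *Arc*, the most abundant of them, was counted at 257 and 182 CPM in the controls and at 126 and 953 CPM in the knockdown samples. The part of this difference in the chaperone values was not tested.

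Cell type markers differed between the groups as well. Of 10 astrocyte markers 9 were DOWN, with summed levels of 5417 and 5661 CPM in the controls and 4219 and 3045 CPM in the *Ash1L* shRNA samples, and the first by *P* were *Gja1* (log2 fold change -0.99) and *Fgfr3* (-0.95). Of 10 reactive astrocyte markers 3 were UP, among them *Aspg* (0.75) and *Osmr* (1.04), and the sums were 498 and 562 CPM against 582 and 680 CPM. *Osmr* stood at 19.6 CPM in *Ash1L* shRNA 1 and at 38.7 CPM in *Ash1L* shRNA 2. *Gfap*, the most abundant of the list, was not called, at 319 and 352 CPM in the controls against 349 and 322 CPM. Of 8 excitatory neuron markers 4 were DOWN (*Neurod2*, -0.53, and *Tbr1*, -0.76, first by *P*), with sums of 2821 and 3301 CPM against 2592 and 2087 CPM. Of 9 interneuron markers 3 were DOWN (first *Pvalb*, -0.90, and *Lhx6*, -0.50), with sums of 696 and 637 CPM against 576 and 600.3 CPM. When each sample was left out, the DOWN counts ran from 5 to 9 for astrocytes (5 without either control), from 1 to 7 for excitatory neurons and from 1 to 4 for interneurons (1 without either control, highest without *Ash1L* shRNA 1), and the UP count of reactive astrocytes from 1 to 6 in the same way.

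Of the 9 T and B lymphocyte markers tested, 8 were DOWN (first *Mzb1*, -4.31, and *Cd79a*, -3.16), with sums of 23.1 and 32.4 CPM in the controls and 4.56 and 3.18 CPM in the *Ash1L* shRNA samples (5 DOWN without control 2). Microglial markers gave 0 calls of 8 in edgeR's test and by DESeq2 and summed to 620 and 641 CPM in the controls and to 736 and 317 CPM in *Ash1L* shRNA 1 and 2, with 7 DOWN without *Ash1L* shRNA 1 and 3 UP without *Ash1L* shRNA 2. Endothelial markers gave 0 calls of 8 in both and summed to 252 to 290.2 CPM. Of 8 oligodendrocyte markers 1 was DOWN (*Opalin*, -0.86), and of 8 mural cell markers 1 was UP (*Abcc9*, 0.41). Of 8 meningeal fibroblast markers 2 were UP (*Lum*, 0.72, and *Pdgfra*, 0.27) and 1 was DOWN (*Slc6a13*, -0.89). *Pdgfra* was counted at 82.3 to 107 CPM and *Lum* at 3.85 to 8.22 CPM, and which cells the *Pdgfra* reads came from was not measured. The calls of *Abcc9* and *Lum* were each lost in 6 of 14 alternative fits. No marker of these lists was at 0 in all 4 samples, and the part of cell makeup in the chaperone values was not tested.

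Genes that regulate or work with the 10 chaperones were described from lists of known function. None of 5 heat shock factors and HSF1 regulators was called in edgeR's test or by DESeq2. *Hsf1* was counted at 24.16 and 23.12 CPM in the controls and at 19.31 and 23.06 CPM in the *Ash1L* shRNA samples. Both knockdown samples were below both controls, *Ash1L* shRNA 2 by very little. *Hsf2*, which encodes a second stress-related heat shock factor, was counted at 32.0 and 33.1 CPM against 36.1 and 40.05 CPM, with both knockdown samples above both controls. *Hsbp1*, the most abundant of the list and a binding partner that restrains HSF1, stood at 149 and 158 against 162 and 166 CPM.

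Of 20 other genes known to respond to HSF1, 2 were UP, against 8.61% of all genes, and 0 were DOWN, and the median log2 fold change was 0.14. The UP count was 7, with 2 DOWN, without *Ash1L* shRNA 1 and 1 without any of the other 3 samples. *Zfand2a*, which encodes an arsenite- and heat-inducible partner of the proteasome, was counted at 81.2 and 76.7 CPM in the controls and at 112 and 133 CPM in the *Ash1L* shRNA samples. The groups did not overlap, and the rise (log2 fold change 0.63, SE 0.13, adjusted *P* = 0.250 in edgeR's test) kept its UP call in each of the 14 other fits. *Cacybp*, a binding partner of an E3 ubiquitin ligase, was UP at 0.29 (SE 0.12), a call lost in 6 of the 14. The largest log2 fold change of the list, 1.61 for *Rgs2*, was not called, and this gene stood at 326 CPM in *Ash1L* shRNA 2 and at 56.9 to 100.1 CPM in the other samples.

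Among the chaperone families, none of the 7 other HSP70 and HSP110 genes was called in edgeR's test or by DESeq2, and *Hspa4*, the most abundant of them, was counted at 310.4 and 322 CPM against 334 and 365 CPM. Of 15 other J-domain genes 1 was DOWN, *Dnajc18* (-0.49). The J-domain count was 6 DOWN and 2 UP without *Ash1L* shRNA 1 and 0 without any of the other 3 samples. Of the 7 other small heat shock genes 6 were tested and 1 was UP, *Hspb7*, at 0.708 and 0.684 CPM in the controls and at 1.94 and 2.03 CPM in the *Ash1L* shRNA samples, from 10 to 53 reads. Both knockdown samples of *Hspb7* were alike and above both controls (log2 fold change 1.51, SE 0.40, adjusted *P* = 0.255 in edgeR's test), a call lost without control 2. *Cryab*, which encodes the abundant small heat shock protein of oligodendrocytes, was counted at 41.6 and 42.6 CPM against 37.1 and 41.6 CPM and was not called.

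Of 16 genes of HSP90 and its co-chaperones 4 were UP, against 8.61% of all genes, and 0 were DOWN, and the list's median log2 fold change was 0.08. The UP count fell to 0 without control 2 and to 2 without control 1, without *Ash1L* shRNA 2 and under the replicate block, and 2 were DOWN without *Ash1L* shRNA 1. The 4 were *Ppid* (0.37), an immunophilin of HSP90, *Ptges3* (0.35), the p23 co-chaperone, *Tomm70a* (0.33), the mitochondrial import receptor that accepts clients from HSP90 and HSP70, and *Cdc37l1* (0.33), a relative of the kinase co-chaperone CDC37. *Hsp90ab1*, the constitutive partner of *Hsp90aa1*, was counted at 1344 and 1420 CPM in the controls and at 1289 and 1218 CPM in the knockdown samples and was not called (-0.14). Of 10 genes of HSP70 nucleotide exchange and client handling 1 was UP, *Bag2* (0.57), a BAG protein that inhibits the ubiquitin ligase CHIP. In this list 8 genes had a negative log2 fold change (lowest -0.73), and the median was -0.07. None of the 10 was DOWN in edgeR's test, and DESeq2 called 1 DOWN. *Synpo*, a partner of *Bag3* in autophagy, was the 1 DOWN gene (-0.54) among 10 autophagy and ubiquitin partners. The calls of *Bag2* and *Synpo* were lost without control 2 (0.39 and -0.53).

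The remaining lists held the other folding machines of the cell. Of 8 subunits of the cytosolic chaperonin TRiC 1 was UP, *Cct8* (0.43), and 7 had a positive log2 fold change. The *Cct8* call was lost without either control. Of 11 other mitochondrial chaperones and proteases 1 was UP, *Grpel1* (0.29), the nucleotide exchange factor of mitochondrial HSP70, and its call was lost in 8 of 14 alternative fits, among them DESeq2, the replicate block and each fit without 1 sample. Of 15 chaperones of the endoplasmic reticulum 3 were UP and 0 were DOWN. *Hspa5*, the HSP70 of that compartment, was counted at 349.8 and 316 CPM in the controls and at 440.0 and 482 CPM in the *Ash1L* shRNA samples (log2 fold change 0.47, SE 0.12), and *Hspa13* (0.63) and *Sdf2l1* (0.54) were also UP. Without control 2 the UP count was 1 (*Hspa13*), and without *Ash1L* shRNA 1 it was 5.

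**Figure D5:**
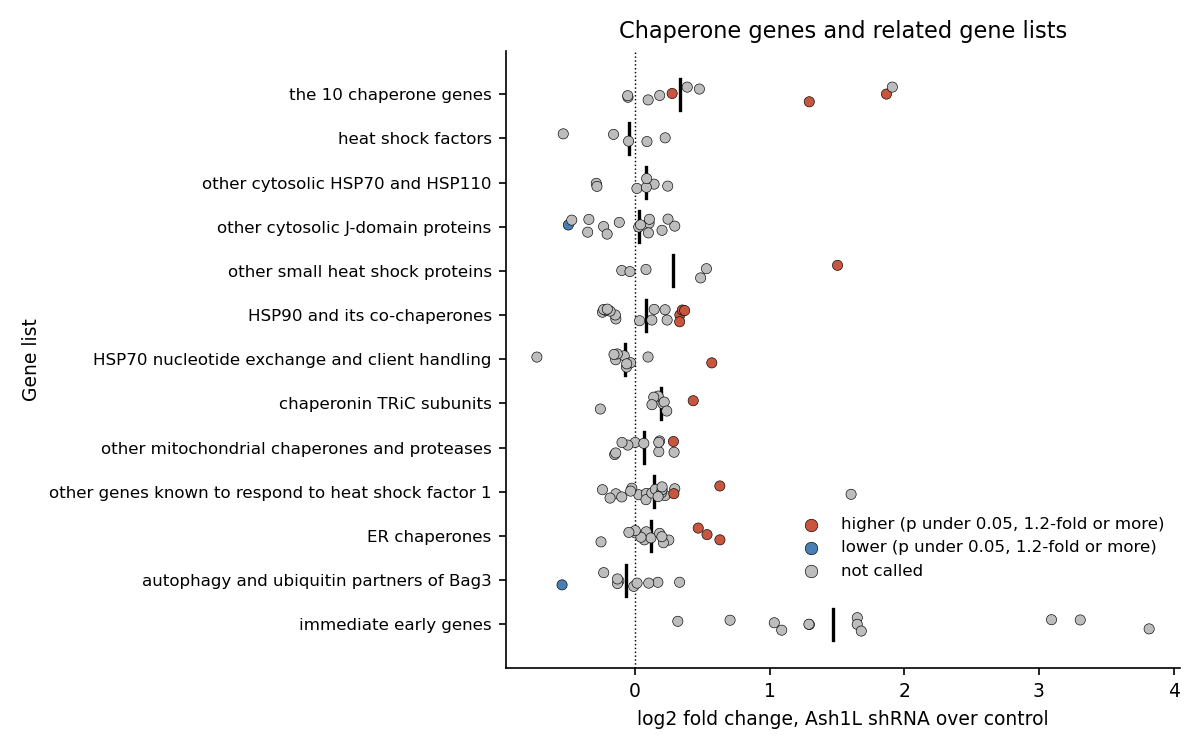
log2 fold changes, *Ash1L* shRNA over control (x axis), of the genes tested in the 10 chaperone genes and in 12 related lists (y axis). Each point is a gene (red, UP; blue, DOWN; grey, not called) and each black bar the median of a list. The chaperone genes have a median of 0.33 with 3 genes above 1.2, and the immediate early genes a median of 1.47 with 0 called.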

How the data were processed

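RNA was extracted from PFC punches, depleted of ribosomal RNA, made into stranded libraries and sequenced in pairs. By the methods of the study, the authors aligned reads to mm10 (STAR; the labels name Cutadapt and TopHat2), counted them by gene (featureCounts) and deposited raw counts per gene symbol, without normalization. Strand and multiple-mapping settings are not given in the sources used here. Genes were filtered (filterByExpr), scaled (TMM) and tested with edgeR 4.0.16 (R 4.3.3), robust quasi-likelihood F test, *Ash1L* shRNA against control, Benjamini-Hochberg adjustment over 16232 genes. Standard errors are the log2 fold change over the square root of F. The fit was tested on simulated data. Levels per kilobase use the union of exons in GENCODE vM21. Depth was 14251190 to 35764874 counts. The 2 samples of each group differed beyond counting noise (chi-square per degree of freedom 15.3 and 44.5). All 10 genes are reported, and from each list the called genes, up to 4 by *P*, or otherwise the most abundant. *Hsf1*, *Hsf2*, *Hsp90ab1*, *Cryab* and *Rgs2* were added after their values were seen. The 10 genes and the lists were chosen with earlier results of these data known. Alternatives covered the test (DESeq2 1.42.0), scaling, filter, pairing, call rule, summing of *Hspa1a* with *Hspa1b*, and leaving out each sample.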

Additional observations from a re-analysis of the deposited data

How the results depend on the processing

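With 2 samples in each group, 1 sample decides many calls. Of the 10 chaperone genes 3 were UP, and the number ran from 0 (without control 2, and without *Ash1L* shRNA 2) to 6 (without *Ash1L* shRNA 1) when each sample was left out, which leaves a lone sample assumed to vary like the other group. It was 0 at an adjusted *P* under 0.05 in edgeR's quasi-likelihood test. Under the replicate block it was 2 (*Hspa1a* and *Bag3*), with 1052 of all genes UP. Same-numbered samples did not deviate together (correlation -0.11). A crossed replicate block, chosen after seeing the data, gave 5, with 1541 of all genes UP. None was DOWN under any alternative. Over all genes, leaving out each sample gave 423 to 2368 UP and 306 to 2718 DOWN in place of 1397 and 1344 (lowest without control 2, highest without *Ash1L* shRNA 1), a 1.5-fold limit gave 765 and 491, and the adjusted threshold gave 0 and 1 in edgeR's quasi-likelihood test, 421 in all with DESeq2 and 479 with the likelihood ratio test. The log2 fold changes that turned direction ran, over the samples left out, from -0.11 to 0.0016 for *Hsp90aa1*, from -0.25 to 0.52 for *Dnajb1*, from -0.0906 to 0.916 for *Hspb1*, from -0.123 to 0.0312 for *Hspe1* and from -0.80 to 2.11 for *Arc*. The causes were not tested. *Bag3*, *Hspa1a*, *Hspa1b* and *Hspb1* had under 130 reads in each control. The counting intervals of control 1 and 2 were 3.93 to 6.34 and 1.66 to 2.65 CPM for *Hspa1a*. They were 7.24 to 10.4 and 1.83 to 2.87 CPM for *Hspa1b*, and 4.49 to 7.05 and 2.78 to 4.03 CPM for *Hspb1*. In these genes the intervals did not overlap. For *Bag3* they did (2.20 to 4.10 and 2.35 to 3.50 CPM).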
